A study of Homo sapiens with 8 samples.

Results

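Transcripts of 10 genes that build the mitotic spindle and divide the cell were compared between quiescent and cycling cells of RL. RL is an established cell line from a human B lymphoma, with the genotype t(14,18)+. The genes were TPX2, TACC3, CKAP5, ASPM, NUSAP1, PRC1, RACGAP1, ECT2, ANLN and CEP55, chosen by symbol out of 19775 genes with a probe set of a single symbol. All 10 had such a probe set and all 10 passed the filter on dim genes, which left 11678 genes in the test. RL cells had grown for 14 days as multicellular aggregates of lymphoma cells and were stained with pyronin Y, which binds RNA. The 4 quiescent samples were sorted as pyronin Y dull and the 4 cycling samples as pyronin Y bright, so both groups share the line, the translocation, the culture and the dye. The samples of a group carry numbers 1 to 4, and whether these mark separate cultures is not stated. The p-values therefore cover only the spread between these arrays, which may be technical.

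A dividing cell builds a bipolar array of microtubules, pulls its chromosomes apart, bundles the remaining microtubules into a midzone and then pinches itself in at that plane. TPX2, TACC3, CKAP5, ASPM and NUSAP1 act on the spindle. PRC1, RACGAP1 and ECT2 act at the midzone, from which the signal for the contractile ring is sent, and ANLN and CEP55 act in the ring and in the midbody where the daughters separate. Many genes of this kind are silenced in resting cells by the DREAM complex, which binds a promoter element called the CHR, and are switched on in G2 phase through the same element by MYB and FOXM1 complexes.

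The authors' scaling gave every array a trimmed mean intensity of 499.9, and their median intensities ran from 71.9 to 113.4. Log2 values were therefore centred on each array's median, so a difference stands against the median probe set of its array. These medians lay near 83.3, the intensity of the filter on dim genes, where values cannot be told from background here. Centring thus aligns dim probe sets and need not align the genes tested. After it limma called 32.5% of all genes tested lower and 2.8% higher, against 15.4% and 12.2% as deposited. After quantile normalization the shares were 16.4% and 10.5%. Which scaling is right was not tested. Intensities, and means of them, are printed as deposited, and log2 differences are centred unless stated. The difference of every gene is 0.413 higher as deposited than centred, so small differences can have opposite signs on the 2 scales. Of 8 B cell markers 7 had a probe set of their own and all 7 passed the filter, with summed intensities of 56751 to 71147 on quiescent and 57357 to 69869 on cycling arrays. After centring 5 of these 7 B cell markers were called lower, with log2 differences of −0.64 to −0.39, and as deposited none of these 5 passed limma, with adjusted p from 0.284 for BLNK to 0.885 for MS4A1. Few genes of other cell types passed the filter, 3 of 8 for T cells, 1 of 7 for myeloid, 2 of 6 for stromal and 1 of 4 for endothelial cells, and the T cell, myeloid and stromal sums overlapped between the groups. The endothelial list, where PECAM1 passed, summed to 517.9 to 967.3 on quiescent and 370.4 to 512.7 on cycling arrays. PECAM1 differed by 0.45 on the log2 scale and was not called (limma adjusted p = 0.31). The part of the endothelial list in the results was not tested. As a measure of RNA quality, ACTB control probe sets at the 3′ end were set against those at the 5′ end. Their log2 ratio was 2.57 ± 0.18 on quiescent and 2.02 ± 0.20 on cycling arrays (SD, n = 4 each), with no overlap. The exact permutation test gave p = 0.0286, the smallest that 70 assignments allow, and 0.0381 after adjustment over 4 such ratios, of which 3 passed. The part of these ratios in the results was not tested.

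All 10 genes were lower in quiescent cells, and the groups did not overlap for any of them, centred or as deposited. All 10 passed limma at an adjusted p under 0.05, where 32.5% of all genes tested were called lower and 2.8% higher. As deposited, all 10 were again called, against 15.4% of all genes, and after quantile normalization all 10, against 16.4%. Groups that did not overlap, with quiescent lower, were found for 28.3% of all genes centred and 15.4% as deposited. The median log2 difference of the 10 genes, quiescent minus cycling, was −2.32 after centring, −1.91 in the deposited scaling and −1.82 with quantile normalization. The medians of all genes tested were −0.332, 0.081 and −0.038 in the same order. A fall of at least 2-fold was reached by 10 of 10 centred, where 12.3% of all genes were called with such a fall, and by 8 of 10 as deposited, where 4.32% were. The sorted fractions are mixtures of cells, and fewer cells in mitosis cannot be told apart from less of these RNAs per cell.

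The promoters of the genes are shown because all 10 genes were lower in quiescent cells. RefSeq promoters of build GRCh38.p14, from 250 bases before to 50 after the start, were matched by symbol for 8 of the 10, and RACGAP1 and TPX2 are named only. Both strands were searched for the CHR hexamer TTTGAA, for CCAAT, which NF-Y binds, and for 2 E2F-type motifs, TTCCCGC and TTTGGCGC. The CHR hexamer was found in 7 of 8 promoters, against 15.4% of 27305 promoters of the same length and 10.1% of the 9467 that belong to genes tested here. Of the 8, 4 held it at least 2 times, against 2.34% of all promoters. CCAAT was found in 6 of 8, against 35.7% of all promoters and 37.5% of those of genes tested. Both motifs together were found in 6 of 8, against 6.08% and 4.38%. The E2F-type motifs were found in 1 promoter each, TTCCCGC in CEP55 and TTTGGCGC in NUSAP1, against 6.56% and 0.659% of all promoters. Among promoters of genes tested the shares were 10.2% and 1.06%, so 1 of 8 for TTCCCGC is near that share. The 27 matches in these 8 promoters did not overlap each other. A match is a description of the letters and does not show that a factor binds there.

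The last 150 bases before the start are printed 5′ to 3′ on the gene's strand for 6 genes, with CHR and CCAAT matches of either strand in capitals. They are the largest falls (CEP55, ANLN, ASPM), a midzone gene (PRC1) and the smallest falls (CKAP5, TACC3). They lie, in GRCh38.p14, for CEP55 at chr10:93496462-93496611 on the plus strand, ANLN at chr7:36389712-36389861 on the plus strand, ASPM at chr1:197146670-197146819 on the minus strand. The others are PRC1 at chr15:90994536-90994685 on the minus strand, CKAP5 at chr11:46846281-46846430 on the minus strand and TACC3 at chr4:1720481-1720630 on the plus strand.
CEP55: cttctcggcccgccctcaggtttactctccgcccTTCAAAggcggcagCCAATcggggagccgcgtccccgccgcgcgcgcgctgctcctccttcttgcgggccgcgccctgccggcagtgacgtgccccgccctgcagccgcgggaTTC
ANLN: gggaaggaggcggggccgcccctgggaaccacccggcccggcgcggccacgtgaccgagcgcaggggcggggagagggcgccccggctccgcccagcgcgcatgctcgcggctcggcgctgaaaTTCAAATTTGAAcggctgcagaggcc
ASPM: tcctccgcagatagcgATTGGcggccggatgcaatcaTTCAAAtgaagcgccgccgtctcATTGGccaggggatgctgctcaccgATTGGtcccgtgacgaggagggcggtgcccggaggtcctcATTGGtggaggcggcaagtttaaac
PRC1: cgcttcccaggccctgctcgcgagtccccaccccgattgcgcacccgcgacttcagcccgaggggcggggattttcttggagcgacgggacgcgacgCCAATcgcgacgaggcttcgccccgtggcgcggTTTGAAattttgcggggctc
CKAP5: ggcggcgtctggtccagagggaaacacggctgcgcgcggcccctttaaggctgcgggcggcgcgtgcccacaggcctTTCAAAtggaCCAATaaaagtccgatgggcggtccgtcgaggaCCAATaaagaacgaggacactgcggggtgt
TACC3: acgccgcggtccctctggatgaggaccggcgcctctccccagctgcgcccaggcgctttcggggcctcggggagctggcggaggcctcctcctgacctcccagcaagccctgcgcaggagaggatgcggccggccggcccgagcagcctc
In ANLN 2 CHR matches stand side by side as an inverted repeat at −26 to −15, counted from the start, and no CCAAT was found in its window. In PRC1 a CCAAT at −53 to −49 is followed by a CHR match at −20 to −15. The capitals at the end of the CEP55 sequence are the part before the start of a CHR match that runs on to base 3 after it. CKAP5, with a small fall, holds a CHR match at −73 to −68 beside a CCAAT at −63 to −59, while the TACC3 window holds none of the 4 motifs. The NUSAP1 promoter, not printed, had its CHR match after the start, at 14 to 19.

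**Figure D1:**
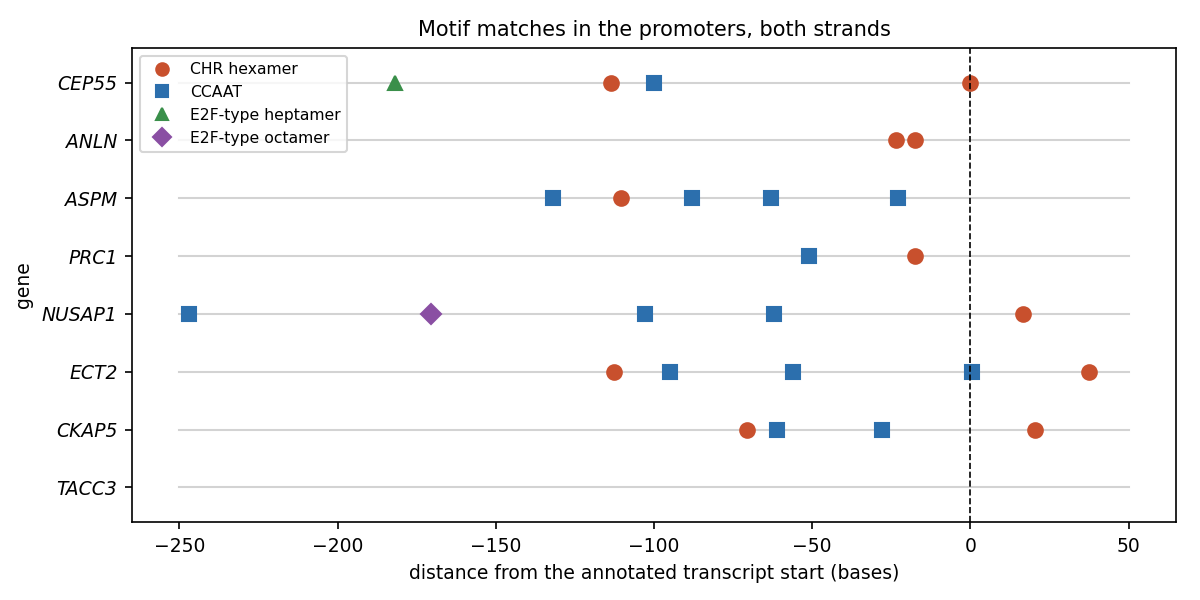
Positions of motif matches on either strand in 8 promoters, with the distance from the annotated transcript start in bases on the horizontal axis and genes ordered from the largest fall (top) to the smallest. CHR matches appear in 7 of the 8 promoters and CCAAT in 6, and TACC3 has none.

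CEP55, which recruits the ESCRT machinery to the midbody for the final cut, had the largest fall of the group. Its intensity was 215.2, 253.8, 73.8 and 86.9 on the quiescent arrays, against 1590, 1158, 1165 and 1389 on the cycling arrays. Every quiescent value lay far below every cycling value, and quiescent samples 3 and 4 were the dimmest. The means were 157.4 ± 90.5 in quiescent and 1326 ± 206.7 in cycling cells (SD, n = 4 each). The log2 difference was −3.68 (SE 0.36, limma adjusted p = 9.04e-06), with rank 13 among the falls of the 11678 genes. One quiescent array lay under the filter's intensity of 83.3, so the size of the fall rests in part on dim values.

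ANLN encodes anillin, the scaffold that ties actin, myosin and septins together in the ring. It had 252.3, 352.3, 96.1 and 138.9 on quiescent arrays, against 1228, 1149, 896.1 and 1359 on cycling arrays. The groups did not overlap, and quiescent samples 3 and 4 were again the lowest. ANLN thus differed by −3.04 on the log2 scale (SE 0.33, limma adjusted p = 1.04e-05). Its other probe set gave −2.96 (SE 0.31, limma adjusted p = 1.38e-05 over 27307 probe sets), with means of 152.5 ± 64.5 in quiescent and 845.1 ± 183.6 in cycling cells (SD, n = 4 each).

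At the midzone, PRC1, which bundles antiparallel microtubules, had 2962, 1957, 1936 and 1622 on quiescent arrays, against 10300, 7119, 9051 and 9093 on cycling arrays. Quiescent sample 1 was the highest of its group and cycling sample 2 the lowest of its group, and a wide gap lay between them. On the log2 scale PRC1 differed by −2.51 (SE 0.22, limma adjusted p = 6.81e-07). RACGAP1, which forms the centralspindlin complex with the kinesin KIF23, had 1341, 1242, 1125 and 1517 on quiescent arrays, against 3453, 3216, 3784 and 3690 on cycling arrays. Both groups were tight and well apart, which put RACGAP1 at −1.85 on the log2 scale (SE 0.18, limma adjusted p = 1.4e-06). ECT2, the exchange factor that RACGAP1 recruits to activate RhoA, had 624.9, 977.2, 427.3 and 411.5 on quiescent arrays, against 1517, 1525, 1743 and 2157 on cycling arrays. Its quiescent values were spread, with sample 2 closest to the cycling group, yet no values overlapped. This gave −2.0 on the log2 scale (SE 0.26, limma adjusted p = 4.16e-05). A second ECT2 probe set differed by −1.75 (limma adjusted p = 0.000297), and the remaining one did not pass the filter, with 62.8 ± 34.8 in quiescent and 73.0 ± 7.75 in cycling cells (SD, n = 4 each) and overlapping groups.

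**Figure D2:**
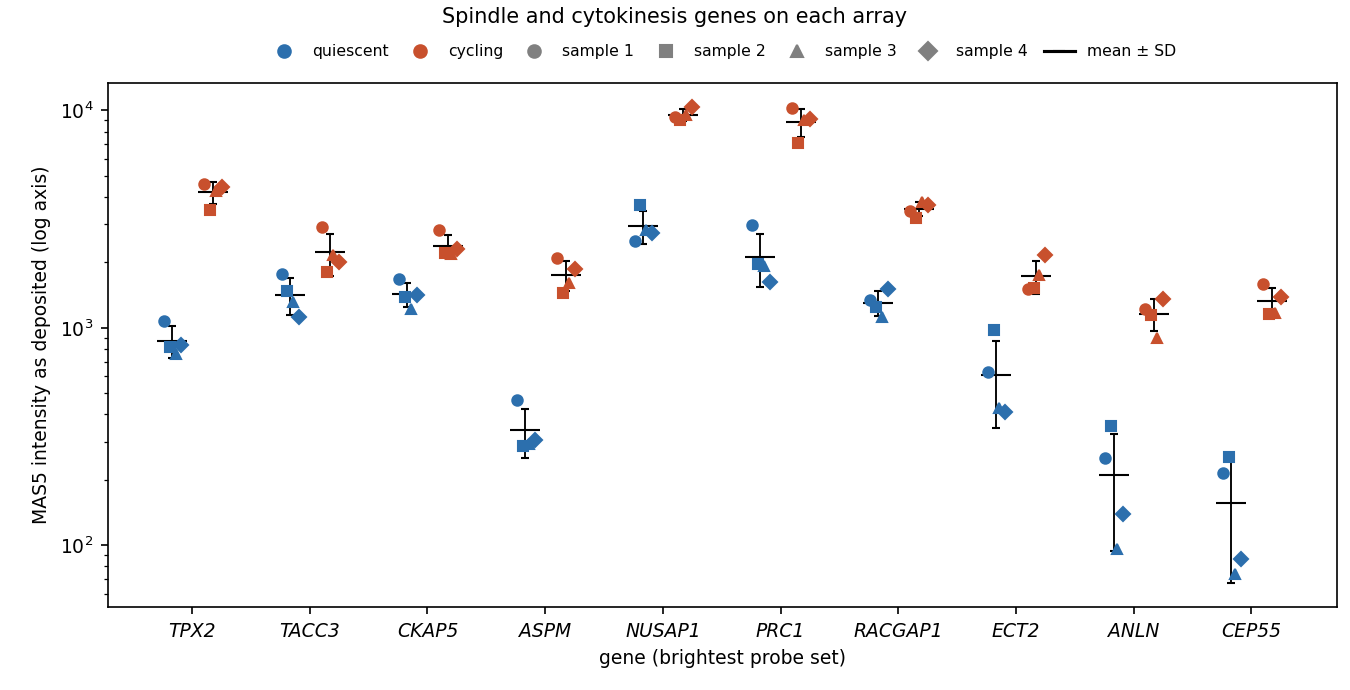
Deposited MAS5 intensity (log axis) of the brightest probe set of each gene on every array, quiescent left of cycling, with marker shapes for sample numbers and bars for the mean ± SD of 4 arrays. No quiescent value reaches a cycling value of the same gene, and TACC3 has the narrowest gap, 1764 on quiescent sample 1 against 1805 on cycling sample 2.

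Among the spindle genes, TPX2, which activates Aurora A kinase and starts microtubule growth near chromosomes, had 1081, 818.6, 759.2 and 833.0 on quiescent arrays, against 4605, 3482, 4245 and 4448 on cycling arrays. The groups were compact apart from quiescent sample 1, which was high, and cycling sample 2, which was low. TPX2 differed by −2.68 on the log2 scale (SE 0.20, limma adjusted p = 1.34e-07). ASPM, a protein of the spindle pole mutated in inherited microcephaly, had 464.5, 287.0, 293.8 and 306.5 on quiescent arrays, against 2086, 1451, 1613 and 1859 on cycling arrays. Its groups lay far apart, and quiescent sample 1 was above the other 3. Its log2 difference was −2.8 (SE 0.22, limma adjusted p = 2.14e-07), and the 2 dimmer ASPM probe sets differed by −3.90 and −3.0 (limma adjusted p = 0.000146 and 6.07e-06). These sizes are uncertain, since the first had 59.8 on quiescent sample 3 and the second 44.0 and 72.4 on quiescent samples 3 and 4, under the filter's intensity of 83.3. NUSAP1, which bundles microtubules beside the chromosomes, had 2514, 3672, 2806 and 2731 on quiescent arrays, against 9283, 9022, 9537 and 10411 on cycling arrays. Quiescent sample 2 was the highest of its group and still far under the cycling arrays. NUSAP1 differed by −2.13 on the log2 scale (SE 0.18, limma adjusted p = 4.17e-07), and −2.04 at the other probe set (limma adjusted p = 7.24e-06).

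The smallest falls were those of TACC3 and CKAP5, which bind each other and, with clathrin, cross-link the microtubules that pull on chromosomes. CKAP5, the microtubule polymerase also called chTOG, had 1672, 1392, 1227 and 1423 on quiescent arrays, against 2807, 2214, 2190 and 2302 on cycling arrays. The groups did not overlap, and sample 1 was the highest in both. CKAP5 differed by −1.15 on the log2 scale (SE 0.18, limma adjusted p = 0.000128), and −0.95 at the other probe set (limma adjusted p = 0.00155). As deposited CKAP5 differed by −0.74 and after quantile normalization by −0.70 (limma adjusted p = 0.00198 and 0.0031). TACC3 had 1764, 1475, 1312 and 1122 on quiescent arrays, against 2926, 1805, 2174 and 2002 on cycling arrays. Its highest quiescent array lay just under its lowest cycling array. The log2 difference was −1.06 (SE 0.22, limma adjusted p = 0.00115), −0.65 as deposited (limma adjusted p = 0.0167) and −0.60 after quantile normalization (0.0258).

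The members thus spanned a range of falls from −3.68 to −1.06. The 95% intervals of TACC3 (−1.52 to −0.60) and CKAP5 (−1.53 to −0.77) did not reach those of NUSAP1 (−2.51 to −1.75), PRC1, TPX2, ASPM, ANLN or CEP55. They overlapped those of RACGAP1 (−2.24 to −1.47) and ECT2 (−2.56 to −1.44). Larger falls than that of CEP55 were seen for 0.103% of all genes tested, and larger than that of TACC3 for 10.9%. Of the 17 probe sets of these genes 16 passed the filter and all 16 were called lower, centred and as deposited, where 23.8% of all probe sets were called lower centred.

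**Figure D3:**
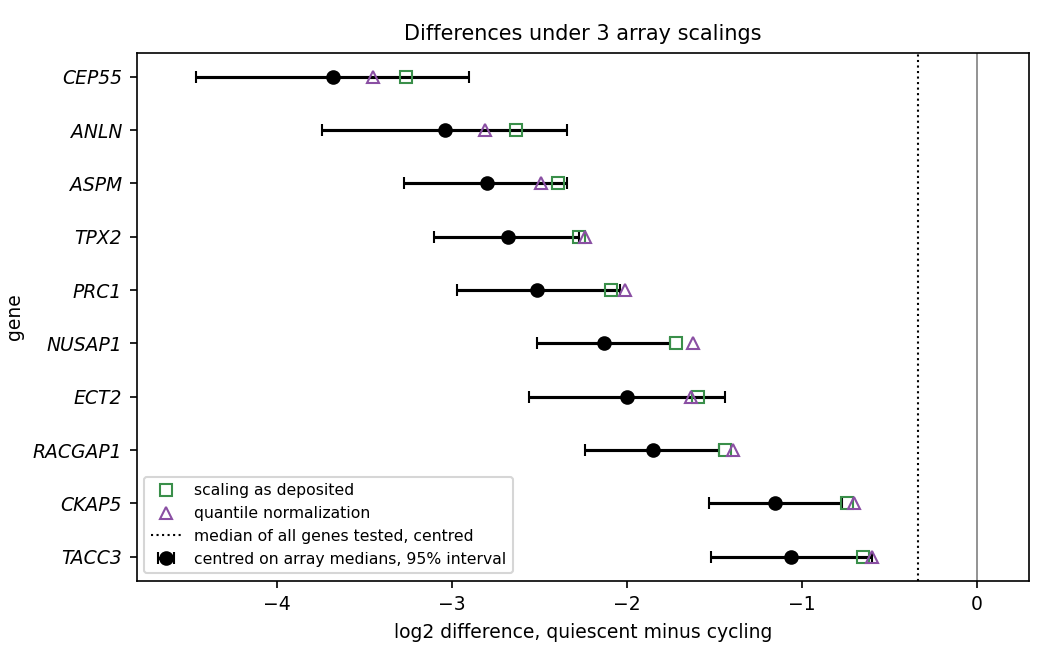
Log2 difference, quiescent minus cycling, of each gene with its 95% limma interval after centring, and as deposited or after quantile normalization (open symbols). The genes run from CEP55 at −3.68 to TACC3 at −1.06, and every symbol lies left of the centred median of all genes tested, −0.332. For the open symbols these medians are 0.081 as deposited and −0.038 after quantile normalization, and they are not drawn.

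The arrays of one group did not move in step for all genes. On the quiescent arrays 5 of the 10 genes had their lowest intensity on sample 3 and 3 on sample 4. The spread of centred log2 values on quiescent arrays was widest for CEP55 (SD 0.90), ANLN (0.83) and ECT2 (0.59), all of which were dimmer on samples 3 and 4 than on samples 1 and 2. It was narrowest for RACGAP1 (0.13) and CKAP5 (0.17). MKI67, the proliferation marker, had 608.4, 405.5, 247.6 and 186.3 on the quiescent arrays, against 2471, 1678, 1810 and 1639 on the cycling arrays, and was thus also lower on quiescent samples 3 and 4. The mitotic cyclin CCNB1 had 1926, 1392, 1011 and 1101 on the quiescent arrays, against 6056, 5123, 7298 and 6860 on the cycling arrays, with the same samples lowest. On the cycling arrays all 10 genes had their lowest centred value on sample 2, and as deposited 7 of 10 did. Its median intensity was 97.9, against 71.9 to 79.1 on the other cycling arrays, so centring lowers values more there. The share of all genes lowest on it was not counted. Its correlations with the quiescent arrays over all genes tested were 0.940 to 0.953, above those of the other cycling arrays. Without that array all 10 genes were still called lower.

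**Figure D4:**
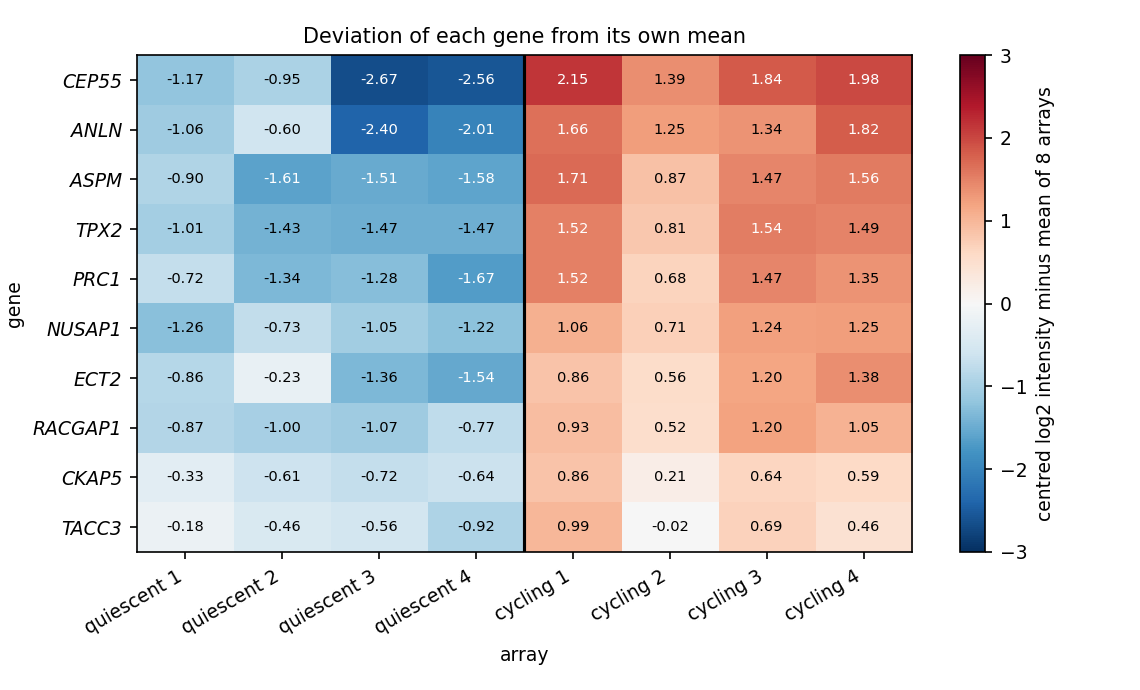
Centred log2 intensity of each gene on each array minus the gene's mean over the 8 arrays (blue below, red above), quiescent arrays left of the line and cycling arrays right of it. Cycling sample 2 has the palest cell of its group in every row, and CEP55 and ANLN are lowest on quiescent samples 3 and 4.

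Partners that bind or act together were compared as log2 differences within an array, which a single scale factor per array does not change. Of 8 pairs 7 could be measured, since PDCD6IP, the ESCRT partner of CEP55, had no probe set of a single symbol. TACC3 minus CKAP5 was 0.08, 0.08, 0.10 and −0.34 on quiescent arrays, against 0.06, −0.30, −0.01 and −0.20 on cycling arrays. The values overlapped, with a change of 0.09 (two-sided exact permutation p = 0.571, 0.667 adjusted over 7 pairs). ECT2 minus RACGAP1 and TPX2 minus AURKA, the kinase that TPX2 activates, changed by −0.14 and −0.18 (exact permutation adjusted p = 0.743 and 0.667), with overlapping groups. PRC1 minus KIF4A, the kinesin it brings to the midzone, changed by 0.44 and TACC3 minus the clathrin heavy chain CLTC by −0.42, also with overlap (exact permutation adjusted p = 0.45 and 0.4). With probe sets averaged, TACC3 minus CKAP5 changed by −0.01, ECT2 minus RACGAP1 by 0.30 and TACC3 minus CLTC by −1.29, and none passed (exact permutation adjusted p = 0.943, 0.44 and 0.1).

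In both other pairs the groups did not overlap. RACGAP1 minus KIF23 was 3.48, 2.94, 4.12 and 3.60 on quiescent arrays, against 2.51, 2.86, 2.39 and 2.49 on cycling arrays, a change of 0.97. KIF23 itself was dim in quiescent cells, at 117.9 ± 39.9 against 606.0 ± 118.9 in cycling cells (SD, n = 4 each), and its value on quiescent sample 3, 64.7, lay under the filter's intensity. With all probe sets of a gene averaged the change of this pair was −0.29, the opposite direction (exact permutation adjusted p = 0.333). KIF23 has one other probe set, with 53.9 ± 17.1 in quiescent and 53.5 ± 31.6 in cycling cells (SD, n = 4 each). ANLN minus RHOA, the GTPase whose active form anillin binds, was −6.02, −5.04, −7.09 and −6.42 on quiescent arrays, against −3.83, −3.60, −3.86 and −3.52 on cycling arrays, a change of −2.44. For both pairs exact permutation p = 0.0286, the smallest possible with 70 assignments, and 0.1 adjusted over the 7 pairs. With only these pairs at the smallest p, neither could pass the correction whatever the size of its change. The adjusted p therefore decides nothing here.

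Other genes of the pathway were counted in 7 lists with 122 genes tested, chosen with earlier results of these data known. Of these, 77 were called lower and 1 higher centred, against 32.5% and 2.8% of all genes. As deposited 50 were lower and 7 higher, against 15.4% and 12.2% of all genes. All 14 midzone and chromosomal passenger genes tested fell (median log2 difference −2.8, 13 as deposited). SHCBP1, a midbody protein that binds RACGAP1, had 193.4 ± 60.5 in quiescent and 1588 ± 262.9 in cycling cells (SD, n = 4 each), which is −3.48 on the log2 scale. BIRC5, the passenger subunit survivin, and DEPDC1B had −3.47 and −3.04. KIF23 and KIF4A had −2.83 and −2.95, with −1.57 for KIF23 when its probe sets were averaged, and the smallest falls were those of FAM83D (−1.07) and KIF20B (−1.44). FAM83D, with overlapping groups, was not called as deposited (limma adjusted p = 0.125), after quantile normalization (0.157) or without cycling sample 3 (0.0513). KIF20B was not called when its probe sets were averaged (0.208).

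Of 18 genes tested of the list around Ran, importins and TPX2, 17 fell (median −2.15, 16 as deposited). DLGAP5, a Ran-regulated protein of chromosome-bound microtubules, had 530.5 ± 268.8 in quiescent and 4380 ± 389.9 in cycling cells (SD, n = 4 each), a log2 difference of −3.61. NUF2 of the outer kinetochore, HMMR, a spindle protein that binds TPX2, and AURKA had −3.38, −2.85 and −2.50. NUMA1, which anchors dynein at the poles, did not pass, with 533.5 ± 143.4 in quiescent and 465.5 ± 54.8 in cycling cells (SD, n = 4 each) as deposited. Its log2 difference was −0.25 centred and 0.16 as deposited (limma adjusted p = 0.403 and 0.601), so the sign turned with the scaling. The importin KPNB1 fell, with −0.67, and was not called as deposited (limma adjusted p = 0.121) or after quantile normalization (0.418). Of 16 augmin and gamma-tubulin genes tested, which nucleate microtubules, 11 fell (median −0.93, 7 as deposited). Of all genes 32.5% were called lower centred and 15.4% as deposited. TUBG1, gamma-tubulin itself, differed by −2.0 and the augmin subunits HAUS7 and HAUS1 by −1.63 and −1.25. HAUS5 (−0.04) and MZT2B (−0.12) did not pass.

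Of 17 centrosome and pole genes tested, 9 fell (52.9%, median −0.56), against 32.5% of all genes. As deposited 4 were lower and 2 higher, where 15.4% and 12.2% of all genes were. PLK4, the kinase that starts centriole duplication, had 464.8 ± 134.6 in quiescent and 2409 ± 271.6 in cycling cells (SD, n = 4 each), a log2 difference of −2.83. STIL and CEP152, which act with PLK4, differed by −2.17 and −1.37, with −0.90 for CEP152 when its probe sets were averaged. CETN2 and NIN had 0.02 and −0.13 and did not pass, while CETN2 was called higher as deposited (0.43, limma adjusted p = 0.0354) and after quantile normalization (0.49, 0.0183). Of 17 microtubule-binding genes and TACC partners tested, 9 fell and 1 rose (median −0.53), against 32.5% and 2.8% of all genes. As deposited 5 were lower and 2 higher, where 15.4% and 12.2% of all genes were. CKAP2L, MAP7 and CKAP2 had −2.60, −1.43 and −1.34, and MAP7 was not called as deposited (limma adjusted p = 0.0898) or without cycling sample 4 (0.0565). MAP7 was dim, with 109.4, 40.3, 44.6 and 97.5 on quiescent arrays, against 156.7, 104.8, 111.0 and 177.2 on cycling arrays, so that its quiescent mean of 73.0 lay under the filter's intensity and the size of its difference is uncertain. CLIP1 and NDEL1, which bind microtubule ends and dynein, had −0.08 and −0.20 and did not pass. CLTC had 8189 ± 950.6 in quiescent and 9528 ± 493.2 in cycling cells (SD, n = 4 each), a log2 difference of −0.64. It was not called as deposited (−0.22, limma adjusted p = 0.147), after quantile normalization (−0.10, 0.595) or with its probe sets averaged (0.23, 0.534).

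TACC1, a relative of TACC3 with the same conserved end domain, was the 1 list gene called higher after centring. This depends on the scaling, since 7 list genes were called higher as deposited and 8 after quantile normalization, TACC1 among them. TACC1 had 2186, 2717, 2858 and 3222 on quiescent arrays, against 1062, 1607, 1368 and 1334 on cycling arrays. Every quiescent value was above every cycling value, the reverse of TACC3. The log2 difference was 0.62 (SE 0.18, limma adjusted p = 0.0115), 1.03 as deposited, and 0.48 when all its probe sets were averaged, where it was not called (limma adjusted p = 0.17). TACC2 did not pass the filter.

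Of the ring list 47.6% and of the ESCRT list 36.8% of the genes tested were called lower centred, against 32.5% of all genes. As deposited 3 of 21 ring and 2 of 19 ESCRT genes were called lower, against 15.4% of all genes. After quantile normalization the counts were again 3 and 2, against 16.4%, so neither list stood above all genes in these scalings. Of 21 contractile ring genes tested, 10 fell (median −0.36), against 3 lower and 1 higher as deposited, and 6 fell without quiescent sample 4 or cycling sample 4. DIAPH3, a formin that grows actin filaments, had 180.9 ± 50.7 in quiescent and 1008 ± 85.7 in cycling cells (SD, n = 4 each), a log2 difference of −2.93. MYH10, a non-muscle myosin, and the actin-severing CFL1 had −1.16 and −1.06, and CFL1 was not called when its probe sets were averaged (limma adjusted p = 0.366). As deposited MYH10 and CFL1 had −0.75 and −0.65. RHOA had 13219 ± 2162 in quiescent and 15020 ± 1957 in cycling cells (SD, n = 4 each), a log2 difference of −0.60 (limma adjusted p = 0.012) with overlapping groups. It was not called as deposited (−0.19), after quantile normalization (−0.06), with its probe sets averaged (−0.05) or without quiescent sample 4 (−0.53), with limma adjusted p of 0.297, 0.735, 0.9 and 0.0508 in that order. ROCK2, a kinase that RhoA activates, and IQGAP1 had −0.01 and −0.09 and did not pass, while IQGAP1 was called higher after quantile normalization (0.40, limma adjusted p = 0.0261).

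Of 19 ESCRT and abscission genes tested, which act with CEP55 at the midbody, 7 fell (median −0.50), against 2 lower and 2 higher as deposited. The count was 12 without cycling sample 2, 3 without cycling sample 3 and 4 without cycling sample 4. VPS25, VPS4A, the ATPase that recycles ESCRT filaments, and CHMP4B had −1.16, −0.97 and −0.69. As deposited VPS25 and VPS4A had −0.74 and −0.55. CHMP4B was not called as deposited (−0.28), after quantile normalization (limma adjusted p = 0.296) or with its probe sets averaged (0.0528). CHMP1B and IST1 had −0.10 and −0.14 and did not pass, while IST1 was called higher after quantile normalization (0.40, limma adjusted p = 0.0298).

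**Figure D5:**
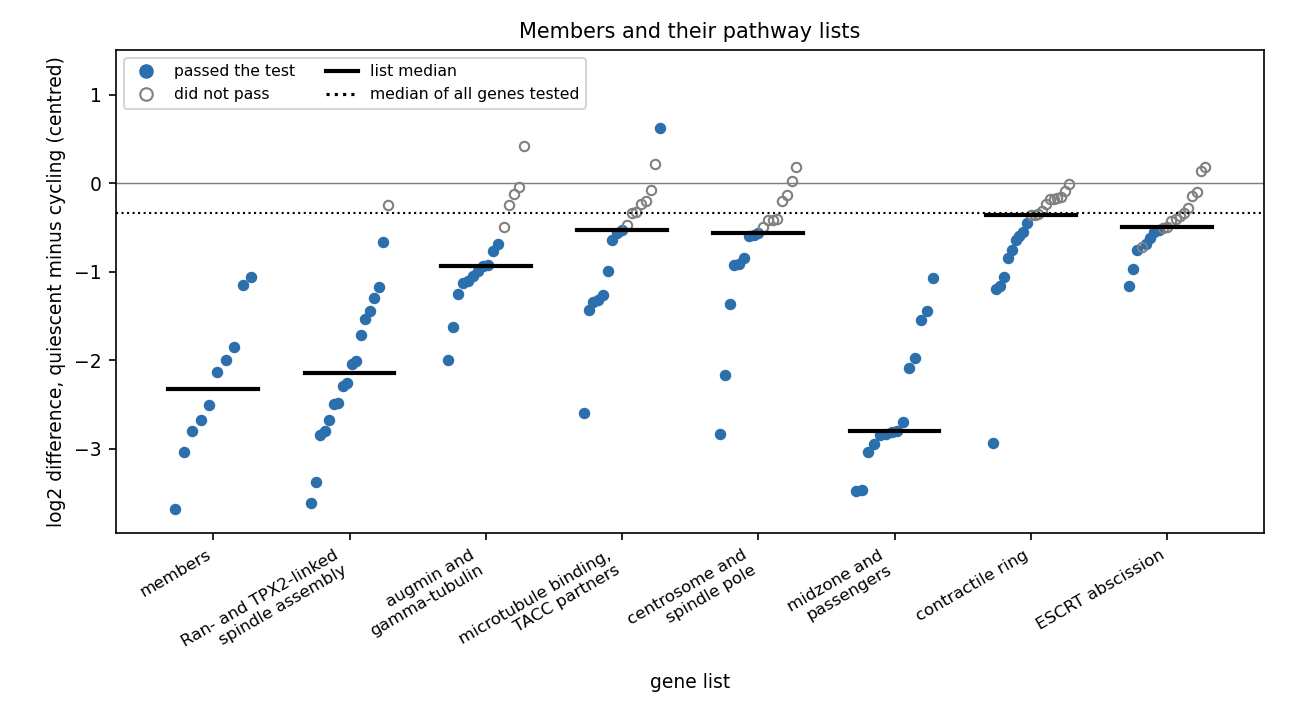
Log2 difference, quiescent minus cycling and centred, of the 10 members and of the genes tested in 7 pathway lists, filled where the gene passed limma, with list medians as bars. The medians run from −2.8 for the midzone list to −0.36 for the contractile ring, next to −0.332 for all genes tested (dotted).

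The genes whose profile over the 8 arrays was most like the members' mean profile were found by the root mean square distance between centred log2 profiles with each gene's mean removed. The 5 nearest genes outside the group were RUVBL1 (0.10), MAD2L1 (0.117), MCM3 (0.131), DEPDC1 (0.143) and PARPBP (0.143). MAD2L1 is the spindle checkpoint protein MAD2, MCM3 a subunit of the replicative helicase and RUVBL1 an ATPase of chromatin remodelling complexes. MAD2L1 had 1859 ± 460.2 in quiescent and 6545 ± 1277 in cycling cells, and RUVBL1 914.4 ± 165.3 in quiescent and 3213 ± 490.9 in cycling cells (SD, n = 4 each). Of the members themselves, which make up the mean profile, PRC1 (0.212), NUSAP1 (0.238) and TPX2 (0.246) lay nearest to it. Member ranks among all genes tested ran from 24 for PRC1 to 2084 for CEP55, so many other genes lay closer than any member. CEP55 (0.783) and TACC3 (0.639) lay farthest from the mean profile, at the opposite ends of the range of falls.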

How the data were processed

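Per the labels, total RNA was extracted with Trizol and biotinylated cRNA was hybridised to Affymetrix U133+ 2.0 arrays, as the series description names them. The authors deposited linear-scale intensities made with MAS5, per the submitters' processing notes (no version is named in the sources used here). Present calls were not used, and 4 arrays per group limit the precision. Groups and sample numbers come from the titles.

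Intensities were floored at 1, taken to log2 and centred on each array's median over non-control probe sets. Probe sets of a single symbol in the platform annotation were used, with Entrez identifiers matched to RefSeq. Each gene was represented by its brightest probe set, and genes under an intensity of 83.3 on average, the median over non-control probe sets, were left out. Quiescent and cycling arrays were compared with limma 3.58.1 (lmFit, eBayes with trend and robust) in R 4.3.3, with Benjamini-Hochberg adjustment over all genes or probe sets tested. The fit was also run on simulated data with independent genes and no array effects, which does not test the scaling or a pairing. Exact permutation tests, two-sided, were used for pairs and control ratios. The members, lists, pairs and tests were chosen with earlier results of these data known. List genes named in the text are the 3 largest calls without overlap, up to 3 calls against the list's direction and the 2 nearest 0, beside the pair partners, the 5 nearest profiles, MKI67 and CCNB1. Promoters come from RefSeq. Python 3.11.15 and matplotlib 3.10.9 made tables and plots.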

Additional observations from a re-analysis of the deposited data

Results flagged for a closer look

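In groups of 4 arrays, a highest or lowest value was set apart where its gap to the nearest other value exceeded Dixon's 95% critical share of the group's range. Over 42 such groups, chance gives about 1 in 20. For TPX2, quiescent sample 1 was high, with a centred log2 value of 3.33 against 2.88 to 2.91 on the other quiescent arrays. TPX2 was also low on cycling sample 2, at 5.15 against 5.83 to 5.88. As deposited TPX2 had 1081 on quiescent sample 1, against 759.2 to 833.0 on the other quiescent arrays. On cycling sample 2 it had 3482, against 4245 to 4605 on the other cycling arrays. The rule was applied to genes only after centring, and these flags may depend on the scaling. For ASPM, quiescent sample 1 was high, at 2.12 against 1.40 to 1.51. The within-array difference of TACC3 minus CKAP5 was low on quiescent sample 4, at −0.34 against 0.08 to 0.10, and that of TPX2 minus AURKA on quiescent sample 2, at −1.07 against −0.42 to −0.38. The GAPDH control ratio (3′ over 5′, log2) was high on quiescent sample 4, at 0.14 against 0.10 on the other 3. These values are given without an explanation.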

How the results depend on the processing

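The 10 members were called lower in every one of the 16 alternatives, including each array left out, both other scalings and the replicate block, with log2 differences from −3.97 to −3.26 for CEP55 and −1.24 to −0.60 for TACC3. All 16 probe sets tested were called lower in each alternative run on probe sets except the filter at the 75th percentile, which left fewer and called 13. As deposited, the list genes called lower numbered 50 (7 higher), with 7 for augmin and gamma-tubulin, 5 for microtubule binding, 4 for the centrosome, 3 for the ring and 2 for the ESCRT list. After quantile normalization 8 list genes were higher, and 5 centrosome, 3 ring and 2 ESCRT genes lower. With probe sets averaged, 0 were higher, 5 microtubule-binding and 6 ring genes were lower, and CLTC differed by 0.23. After quantile normalization IQGAP1 and IST1 both differed by 0.40. The cause of these changes was not tested. With 1 array left out, list genes called lower numbered 65 to 90, with 9 to 12 for augmin, 6 to 11 for microtubule binding, 6 to 11 for the centrosome, 6 to 13 for the ring and 3 to 12 for ESCRT. Of the 4 control ratios 3 passed on all arrays, and 0 to 3 with 1 left out, where fewer assignments exist. No pair passed after adjustment in any setting run, and 2 had an unadjusted exact permutation p under 0.05 on all arrays. Both had the smallest possible p there, so with the other pairs as they were neither could have passed. Same-numbered samples of both groups had correlated deviations of 0.344, 0.196, 0.11 and 0.036, and differently numbered ones had −0.166 to 0.138. Cycling samples 1, 2 and 3 each correlated best with the quiescent sample of their number, and cycling sample 4 with quiescent sample 3. Whether the numbers mark pairs is not stated, so the tests left them unpaired, and a pairing remains possible. The replicate block gave 4443 genes lower and 465 higher, against 3795 and 327 without it, all 10 members lower and 12 ESCRT genes lower. Values near 83.3 cannot be told from background here.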
